A study of Rattus norvegicus with 4 samples.

Results

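The potassium channel genes of INS-1 cells were compared between monolayer culture and culture in a bioprinted hydrogel. The genes were chosen by name, as Abcc8, Abcc9 and every symbol that begins with Kcn, which gave 94 of the 23360 genes listed. Of these, 47 had a mean of at least 0.5 TPM (transcript abundance per length, scaled to a fixed total per culture) over the 4 cultures and are treated as expressed, 36 of them as pore-forming subunits and 11 as auxiliary or other genes. The remaining 47 were under that level and are treated as not expressed, and 20 of them were listed at 0 in every culture.

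INS-1 832/3 is a rat insulinoma line that secretes insulin and carries a human insulin gene with a Geneticin resistance marker. All cultures came from that line, were kept in RPMI-1640 medium with Geneticin, and were harvested after 5 days at passage 3. The 2D monolayer group comprised 2 standard cultures without hydrogel, and the 3D bioprinted group comprised 2 cultures printed in GelXA LAMININK 411 hydrogel. No culture in hydrogel without printing, or printed without laminin or without crosslinking by ultraviolet light, was among the samples. The hydrogel, its laminin, its crosslinking, the printing and the three-dimensional growth therefore cannot be told apart. The labels call the samples biological replicates, and they share a cell line and a passage number.

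Potassium channels let potassium leave the cell and so hold the membrane negative or bring it back there after an action potential. In pancreatic beta cells the ATP-sensitive (KATP) channel, built from Kir6.2 pores and SUR1 sulfonylurea receptors, is open at low glucose and closes as ATP rises, which depolarizes the cell, opens voltage-gated calcium channels and triggers insulin release. Delayed rectifiers of the Kv families and calcium-activated BK and SK channels then repolarize the membrane, K2P (tandem pore domain) channels carry background current, and auxiliary proteins such as KChIP, Kv beta and KCNE set the gating, trafficking or surface level of the pores.

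Messenger RNA was sequenced in the 4 cultures, and transcript values were deposited as TPM that sum to 1000000 in each, with 19355 to 19959 of 31201 listed transcripts above 0. TPM are per transcript length, so levels can be compared between genes, but they keep no sequencing depth. The authors' methods state a read count per sample, given in common for all samples. Without counts per transcript, the counting error of a value was not estimated. Of 10 beta cell markers 9 were listed, all of them expressed. Their summed levels, from 145983 to 167427 scaled TPM, did not separate the groups, but Ins1 alone was at 113085 to 134310. Ins2 was lower (log2 difference -0.59, adjusted p = 0.012 in limma) and the glucose transporter gene Slc2a2 higher in 3D (0.39, adjusted p = 0.0090). Pdx1 was lower in both 3D cultures (-0.24, adjusted p = 0.051) and Iapp higher in both (0.19, adjusted p = 0.17), neither reaching 0.05. Ins1, Nkx6-1, Mafa, Neurod1 and Chga overlapped. Of 16 markers of other cell types 14 were listed, 4 of these at 0 in every culture, and without Gcg their sum was 3.95 and 4.18 scaled TPM in 2D and 4.85 and 5.45 in 3D. Gcg, the glucagon gene of alpha cells, was at 41.6 and 77.2 in 2D and at 122.8 and 151.2 in 3D (log2 difference 1.25, adjusted p = 0.026), while the alpha cell regulator Irx2 was at 0 in every culture. The part of Gcg-expressing cells in the results below was not tested. In these bulk samples a change in the number of cells of a type and a change in RNA per cell cannot be told apart.

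Of the 47 expressed potassium channel genes, 14 were higher and 4 were lower in 3D culture at an adjusted p below 0.05 in limma, referred to as called below. That is 29.8% higher and 8.51% lower, where 17.2% of the 12697 genes tested were called higher and 18.7% lower, 35.9% in all against 38.3% of these genes. Their median log2 difference was 0.13, against -0.0028 over all genes tested. Of their estimates 36 were positive and 11 negative, against 6304 positive and 6393 negative over all genes tested. The higher genes included Abcc8, Kcnj2, Kcna2, Kcna5, Kcnh6, Kcnh1, Kcnip1, Kcnab3, Kcne2, Kcnma1 and Kcnn1, and the lower ones were Kcnk16, Kcnk2, Kcna4 and Kcnip2. The groups did not overlap in any called gene, but the calls select for this on the same 4 cultures, so it adds no support. They were apart in 33 of the 47 genes, with both 3D cultures above in 25 and below in 8. The share of all genes tested with groups apart was not computed, so these counts have no background to be read against. The calls rest on all 4 cultures. Without 3D replicate 1 or without 3D replicate 2 none of these genes was called by limma, with adjusted p-values of the 18 called genes from 0.084 to 0.21 and from 0.051 to 0.18, with 17 and 18 of the 47 at an unadjusted p below 0.05, and with 32 and 48 genes called among all genes. Without 2D replicate 1, 12 were higher and 2 lower, and without 2D replicate 2, 10 were higher and 3 lower. These fits leave a lone culture that is assumed to vary like the other group, and the sign of all 18 held in each of them. Permuting 2 cultures against 2 allows no two-sided exact p under 0.33 for any gene by itself, and limma reaches smaller values by pooling the spread of all genes.

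**Figure D1:**
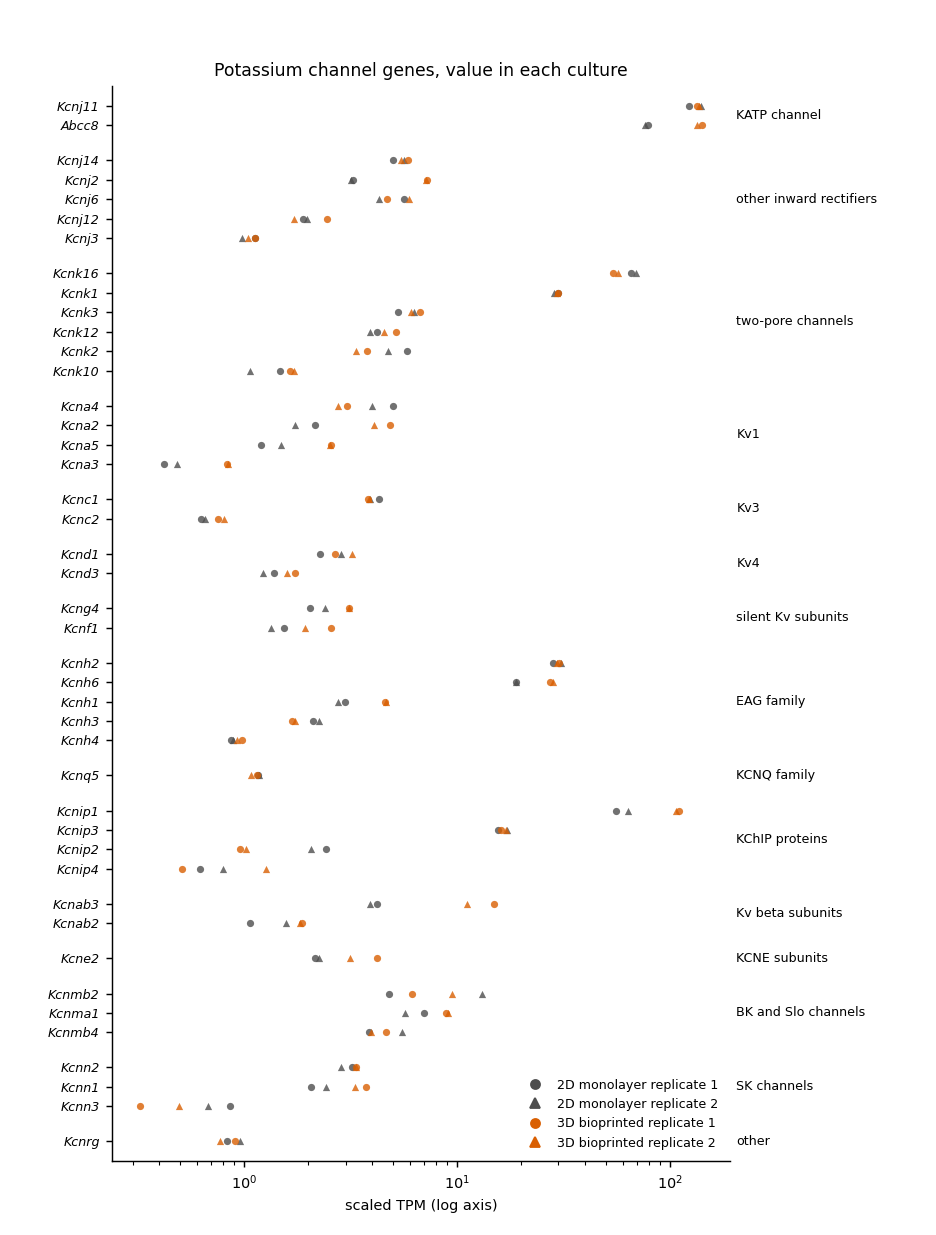
Level of 43 of the expressed potassium channel genes in scaled TPM (log axis), by subfamily, with 1 point for each culture (grey 2D monolayer, orange 3D bioprinted, circle replicate 1, triangle replicate 2). Kcnj11, Abcc8 and Kcnip1 have the highest means, and the groups are apart for Abcc8, Kcnip1, Kcnab3 and Kcnip2 but overlap for Kcnj11, Kcnk1, Kcnh2 and Kcnip3.

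**Figure D2:**
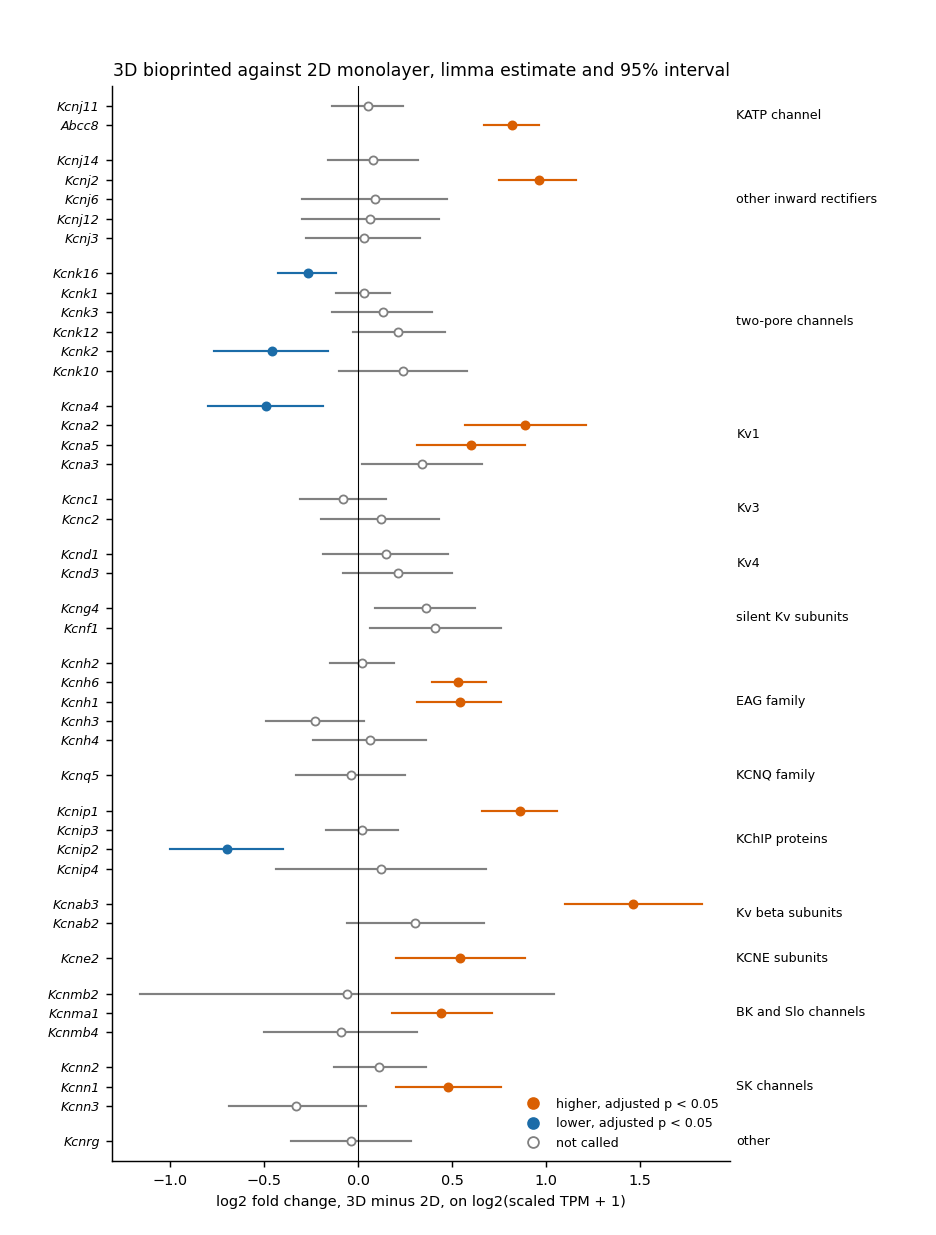
limma log2 difference, 3D minus 2D, on log2(scaled TPM + 1) for the same genes (points), with 95% intervals (lines), orange for 11 called higher, blue for 4 called lower and open for 28 not called. Kcnab3 has the largest rise (1.46) and Kcnip2 the largest fall (-0.70) of the called genes.

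The promoters of the genes that moved most are shown as the sequence context of the comparison. RefSeq promoters (build GRCr8) were matched for 28 of the 47 genes, 31 promoters in all because some genes have several starts, and the 250 bases before each start were searched on both strands. The 3 matched genes with the largest rises, and the gene that fell most, read as follows, 5′ to 3′ on the gene's strand, with capitals for any match to the letters searched below. Kcnab3 lies at chr10:54546388-54546637 on the plus strand, Kcnj2 at chr10:96559975-96560224 on the plus strand, Kcna2 at chr2:197393280-197393529 on the plus strand and Kcnip2 at chr1:254613899-254614148 on the minus strand.
Kcnab3: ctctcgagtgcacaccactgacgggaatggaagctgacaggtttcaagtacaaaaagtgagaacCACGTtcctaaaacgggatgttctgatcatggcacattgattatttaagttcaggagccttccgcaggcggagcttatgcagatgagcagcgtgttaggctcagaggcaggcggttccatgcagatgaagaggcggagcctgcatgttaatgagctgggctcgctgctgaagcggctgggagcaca
Kcnj2: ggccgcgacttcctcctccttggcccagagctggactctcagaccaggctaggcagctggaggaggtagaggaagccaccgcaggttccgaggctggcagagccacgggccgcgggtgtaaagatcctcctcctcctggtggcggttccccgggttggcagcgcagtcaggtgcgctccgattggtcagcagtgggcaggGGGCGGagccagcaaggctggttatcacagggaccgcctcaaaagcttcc
Kcna2: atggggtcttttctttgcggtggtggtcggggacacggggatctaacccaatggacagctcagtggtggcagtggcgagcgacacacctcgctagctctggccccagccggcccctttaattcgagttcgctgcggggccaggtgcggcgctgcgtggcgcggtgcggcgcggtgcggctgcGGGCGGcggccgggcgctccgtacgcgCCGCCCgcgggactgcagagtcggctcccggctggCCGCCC
Kcnip2: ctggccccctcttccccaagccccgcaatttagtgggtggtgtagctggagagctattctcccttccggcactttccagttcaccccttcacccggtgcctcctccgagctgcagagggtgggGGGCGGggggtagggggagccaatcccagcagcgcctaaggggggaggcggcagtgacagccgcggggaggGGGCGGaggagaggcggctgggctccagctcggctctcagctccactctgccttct
The windows of Kcnj2, Kcna2 and Kcnip2 hold 66%, 72.4% and 68% G and C, and that of Kcnab3 holds 52.8%. GC box letters, GGGCGG or the reverse complement, were found in 13 of the 31 promoters and in 30.5% of the 33469 promoters in the table. By direction, 6 of 9 promoters of called higher genes held them, 1 of 5 of called lower genes and 6 of 17 of genes not called. Kcna2 holds the letters 3 times, Kcnip2 2 times and Kcnj2 a single time. The letters ACGTG, a form of the core bound by hypoxia-inducible factors, occurred in 2 of the 31 promoters, those of Kcnab3 and Kcnh4. They occurred in 16.6% of all promoters. The form GCGTG was not searched, so these counts do not cover every form of that core. CACGTG, an E-box that contains ACGTG, was in that of Kcnh4 alone and in 5.59% of all, and TGACGTCA, the cyclic AMP response element, was in 0 of the 31 and in 1.59% of all. A match is a description of letters in this window, not of binding.

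Of the KATP channel genes, Abcc8 rose and Kcnj11 did not pass the test. Abcc8, which encodes SUR1, was at 79.4 and 76.2 scaled TPM in 2D replicates 1 and 2 and at 141.8 and 133.9 in 3D replicates 1 and 2, a ratio of the means of 1.77 and a log2 difference of 0.82 (SE 0.058, 95% interval 0.67 to 0.96, adjusted p = 0.0047). Both 3D cultures lay far above both 2D cultures. Kcnj11, which encodes the Kir6.2 pore and was the most abundant gene of the family in 2D, was at 123.5 and 139.6 in 2D and at 134.4 and 137.7 in 3D. Its 3D levels lay between those of the 2D cultures, with a log2 difference of 0.05 (95% interval -0.14 to 0.24, adjusted p = 0.61) that turned to -0.037 without 2D replicate 1. Of the vascular and cardiac KATP subunits, Kcnj8 (Kir6.1) was listed at 0 in every culture and Abcc9 (SUR2) at no more than 0.020 TPM.

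The ratio of Abcc8 to Kcnj11 within a culture, which does not depend on the scaling between cultures, was 0.643 and 0.546 in 2D and 1.06 and 0.972 in 3D (exact permutation test, two-sided p = 0.33, the smallest that 2 against 2 allows). Messages for the receptor were thus fewer than those for the pore in 2D and about as many in 3D. Of the 2 listed Abcc8 transcripts, ENSRNOT00000028696.7 carried most of the level, at 79.3 and 74.4 in 2D and 134.0 and 129.1 in 3D. The other, ENSRNOT00000038798.4, was at 0.19 and 1.84 in 2D and 7.81 and 4.77 in 3D. The KATP genes held 37.6% and 37.8% of the summed level of the 47 genes in 2D and 39.0% in both 3D cultures, and Kcnj11 alone held 33.5% and 36.4% of the pore-forming sum in 2D and 33.2% and 33.9% in 3D.

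**Figure D3:**
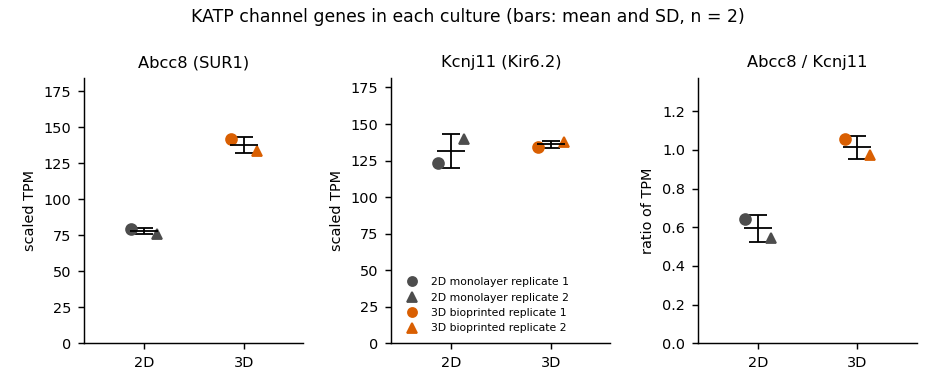
Abcc8 and Kcnj11 levels in scaled TPM and the ratio of Abcc8 to Kcnj11 in each culture (points), with the group mean and SD (bars, n = 2), all axes from 0. Abcc8 and the ratio are higher in both 3D cultures, and Kcnj11 overlaps.

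Of the 5 other inward rectifiers, Kcnj2 alone was called. Kcnj2 encodes the strong inward rectifier Kir2.1, which holds the resting potential in excitable cells, and was at 3.23 and 3.19 scaled TPM in 2D and at 7.22 and 7.15 in 3D, a log2 difference of 0.96 (SE 0.080, 95% interval 0.75 to 1.16, adjusted p = 0.0050). The replicates were close to each other and the groups far apart, with a ratio of means of 2.24. Kcnj14 and Kcnj12, which encode further strong rectifiers, and Kcnj6 and Kcnj3, which encode G protein-gated rectifiers, overlapped between the groups, with log2 differences from 0.03 to 0.09. Of these the widest 95% interval, that of Kcnj6, ran from -0.30 to 0.47.

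The K2P background channels were the subfamily with called genes that all fell. Kcnk16, which encodes the TALK-1 channel of the endocrine pancreas and was the most abundant K2P gene, was at 65.8 and 69.1 scaled TPM in 2D and at 54.0 and 57.3 in 3D, a log2 difference of -0.27 (SE 0.061, 95% interval -0.43 to -0.12, adjusted p = 0.024). The gap between the groups was 8.48 scaled TPM, against a range of no more than 3.37 within a group. Kcnk2, which encodes the mechanosensitive channel TREK-1, was at 5.85 and 4.75 in 2D and at 3.77 and 3.35 in 3D, a log2 difference of -0.46 (95% interval -0.77 to -0.16, adjusted p = 0.035, 0.069 without scaling, 0.067 without a filter and 0.095 without 2D replicate 1). The call of Kcnk16 did not hold without 2D replicate 2 (adjusted p = 0.074). Kcnk1 (TWIK-1), the next most abundant, was at 29.8 and 28.6 in 2D and at 29.8 and 29.7 in 3D, with a log2 difference of 0.03 (95% interval -0.12 to 0.17). The acid-sensitive channel gene Kcnk3 overlapped, and Kcnk12 and the TREK-family gene Kcnk10 were higher in both 3D cultures without passing the test, with log2 differences of 0.21 (95% interval -0.03 to 0.46) and 0.24 (95% interval -0.10 to 0.58). Kcnk16 held 58.5% and 60.8% of the summed K2P level in 2D and 53.4% and 55.8% in 3D.

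Of 20 voltage-gated pore subunits (Kv, EAG and KCNQ genes), 7 were called higher and 1 lower, 40.0% in all against 35.9% of all genes tested, with a median log2 difference of 0.35. Within Kv1, the delayed rectifier genes Kcna2 and Kcna5 rose and Kcna4 fell. Kcna2 (Kv1.2) was at 2.16 and 1.74 scaled TPM in 2D and at 4.87 and 4.07 in 3D (log2 difference 0.89, 95% interval 0.57 to 1.21, adjusted p = 0.0089). Kcna5 (Kv1.5) was at 1.19 and 1.49 in 2D and at 2.55 and 2.53 in 3D (log2 difference 0.60, 95% interval 0.31 to 0.89, adjusted p = 0.017). Kcna4 (Kv1.4), an A-type channel that inactivates quickly, went the other way, from 5.00 and 4.01 to 3.03 and 2.77 (log2 difference -0.49, 95% interval -0.80 to -0.19, adjusted p = 0.031, 0.060 without scaling, 0.059 without a filter and 0.078 without 2D replicate 1). The share of Kcna4 in the Kv1 sum was 57.0% and 51.9% in 2D and 26.9% and 27.1% in 3D. Kcna3 (Kv1.3) was low, with means of 0.452 in 2D and 0.835 in 3D, a ratio of 1.85. It was not called (log2 difference 0.34, adjusted p = 0.089 in limma), but passed in fits without a filter and without an intensity trend. With 0.1 in place of 1 added before the logarithm, its difference was 0.76, again not called.

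The fast-gating channel genes Kcnc1 and Kcnc2 were not called, with log2 differences of -0.08 (95% interval -0.31 to 0.15) and 0.12 (95% interval -0.20 to 0.43). The A-type Kv4 genes Kcnd1 and Kcnd3 had means of 2.57 and 1.31 scaled TPM in 2D and of 2.94 and 1.67 in 3D, and neither was called (95% intervals -0.19 to 0.48 and -0.08 to 0.50). Kcng4 and Kcnf1, silent subunits that form no channel alone but modify other Kv pores, had log2 differences of 0.36 (adjusted p = 0.051) and 0.41 (adjusted p = 0.069). Kcng4 lay at the threshold and was called in 5 of the 9 other settings with all cultures.

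In the EAG family, Kcnh6 and Kcnh1 rose beside an abundant Kcnh2 with no called difference. Kcnh6 encodes Erg2, an ether-a-go-go-related channel, and was at 18.9 and 19.0 scaled TPM in 2D and at 27.5 and 28.3 in 3D, a log2 difference of 0.53 (SE 0.058, 95% interval 0.39 to 0.68, adjusted p = 0.0060). Kcnh1, which encodes the Eag1 channel, was at 2.98 and 2.78 in 2D and at 4.60 and 4.64 in 3D (log2 difference 0.54, 95% interval 0.31 to 0.76, adjusted p = 0.012). In both genes the replicates differed by little beside the gap between the groups. Kcnh2 (Erg1) was at 28.2 and 30.8 in 2D and at 30.3 and 29.5 in 3D, and its 95% interval ran from -0.15 to 0.19. The ratio of Kcnh6 to Kcnh2 was 0.672 and 0.616 in 2D and 0.906 and 0.959 in 3D. Kcnh3 was lower in both 3D cultures (log2 difference -0.23, 95% interval -0.49 to 0.03) and Kcnh4 near its 2D level (0.06, 95% interval -0.24 to 0.36), neither being called.

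Kcnq5, which encodes an M-type channel, had a log2 difference of -0.04 (95% interval -0.33 to 0.25) and was not called. Kcnq1, the partner of KCNE proteins in heart and epithelia, was under the expression level, at 0.14 to 0.40 TPM.

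Of the 10 auxiliary subunits, Abcc8 included, 4 were called higher and 1 lower, with a median log2 difference of 0.21, where 17.2% of all genes tested were called higher and 18.7% lower. Kcnip1 and Kcnip2 encode KChIP1 and KChIP2, calcium-binding proteins that bind Kv4 channels and raise their surface level, and they moved in opposite directions. Kcnip1 was at 55.6 and 63.7 scaled TPM in 2D and at 110.9 and 107.0 in 3D, a log2 difference of 0.86 (SE 0.078, 95% interval 0.66 to 1.06, adjusted p = 0.0052). Kcnip2 was at 2.41 and 2.07 in 2D and at 0.961 and 1.02 in 3D, a log2 difference of -0.70 (SE 0.12, 95% interval -1.0 to -0.40, adjusted p = 0.012). The ratio of Kcnip1 to Kcnip2 was thus 23.0 and 30.8 in 2D and 115.4 and 104.9 in 3D. Kcnip3, which encodes KChIP3, also known as the calcium-binding repressor DREAM, was at 15.6 and 17.2 in 2D and at 16.18 and 16.95 in 3D (95% interval -0.17 to 0.21), and Kcnip4 overlapped and was variable (95% interval -0.44 to 0.68). The KChIP sum was 20.3 and 20.5 times the Kv4 sum in 2D and 29.1 and 26.3 times in 3D.

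Kcnab3 had the largest rise of all 47 genes. It encodes a Kv beta subunit, a cytoplasmic partner of Kv1 pores with an aldo-keto reductase fold, and was at 4.20 and 3.89 scaled TPM in 2D and at 15.0 and 11.1 in 3D, a ratio of means of 3.22 and a log2 difference of 1.46 (SE 0.14, 95% interval 1.10 to 1.83, adjusted p = 0.0053). The 3D replicates differed from each other by 3.83 scaled TPM and stood 6.93 above the higher 2D culture. Kcnab2 was higher in both 3D cultures without passing the test (log2 difference 0.30, 95% interval -0.06 to 0.67). Kcne2, a single-span subunit that partners several Kv channels, was at 2.16 and 2.24 in 2D and at 4.21 and 3.15 in 3D (log2 difference 0.54, 95% interval 0.20 to 0.89, adjusted p = 0.033, 0.068 without a filter, 0.10 without 2D replicate 1 and 0.11 without 2D replicate 2). Kcne1, Kcne3, Kcne4 and Kcne5 were listed at 0 in every culture. Kcnrg, a regulator that binds Kv pores, overlapped, with a log2 difference of -0.04 (95% interval -0.36 to 0.28).

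Of the calcium-activated channels, Kcnma1 and Kcnn1 were called higher. Kcnma1 encodes the large-conductance BK pore and was at 6.99 and 5.73 scaled TPM in 2D and at 8.85 and 9.08 in 3D, a log2 difference of 0.44 (SE 0.10, 95% interval 0.18 to 0.71, adjusted p = 0.028). Kcnn1, which encodes the small-conductance channel SK1, was at 2.06 and 2.43 in 2D and at 3.72 and 3.33 in 3D (log2 difference 0.48, 95% interval 0.20 to 0.76, adjusted p = 0.027). Neither call held without a filter on low genes (adjusted p = 0.070 for Kcnma1 and 0.052 for Kcnn1 in limma). Without 2D replicate 2 neither call held (log2 differences 0.32 and 0.57), and without 2D replicate 1 that of Kcnn1 did not hold (0.40). Kcnn2 (SK2) had a log2 difference of 0.11 (95% interval -0.13 to 0.36). Kcnn3 (SK3), the expressed gene nearest the level of 0.5 TPM with a mean of 0.587, had -0.33 (95% interval -0.69 to 0.04). The scale of log2(scaled TPM + 1) compresses so low a gene, whose ratio of means was 0.534. With 0.1 in place of 1 added before the logarithm, the difference of Kcnn3 was -0.78, again not called. Kcnn4, the intermediate-conductance channel, was listed at 0.

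The BK beta subunits gave no call. Kcnmb2, which inactivates BK channels, was at 4.79 and 13.2 scaled TPM in 2D and at 6.15 and 9.51 in 3D, so the 2D replicates lay on either side of both 3D cultures (log2 difference -0.06, 95% interval -1.16 to 1.04). Its high 2D value came from a transcript, ENSRNOT00000090301.1, at 8.43 in 2D replicate 2 and at 0 in the others. Without that transcript, a choice made after seeing the data, 2D was at 4.79 and 4.73 and the log2 difference was 0.59, with no test. Kcnmb4, the neuronal beta subunit, overlapped, with a log2 difference of -0.09 (95% interval -0.50 to 0.31).

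The summed level of the 47 genes was 539.8 and 570.6 scaled TPM in 2D and 708.2 and 697.0 in 3D, and that of the 36 pore-forming genes 369.2 and 383.4 in 2D and 405.1 and 406.5 in 3D. Abcc8 and Kcnip1, both auxiliary, thus carried much of the higher total. By subfamily, the KATP sum was 209.4 ± 9.12 scaled TPM in 2D and 273.8 ± 3.29 in 3D (SD, n = 2), and the KChIP sum was 79.0 ± 6.68 and 127.4 ± 1.62. The Kv beta sum had a ratio of 3D to 2D of 2.78, followed by 1.68 for KCNE, 1.61 for KChIP and 1.47 for silent Kv. Ratios from 1.19 to 1.31 were found for Kv4, EAG, SK, other inward rectifiers, Kv1 and KATP. The K2P sum was the lower one in 3D, at 101.9 ± 1.17 against 113.1 ± 0.915 scaled TPM (SD, n = 2), a ratio of 0.901. That fall followed Kcnk16, with means of 67.5 in 2D and 55.7 in 3D. Of the 6 K2P estimates 4 were positive and 2 negative, with a median log2 difference of 0.08. The BK sum and Kcnrg overlapped between the groups.

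**Figure D4:**
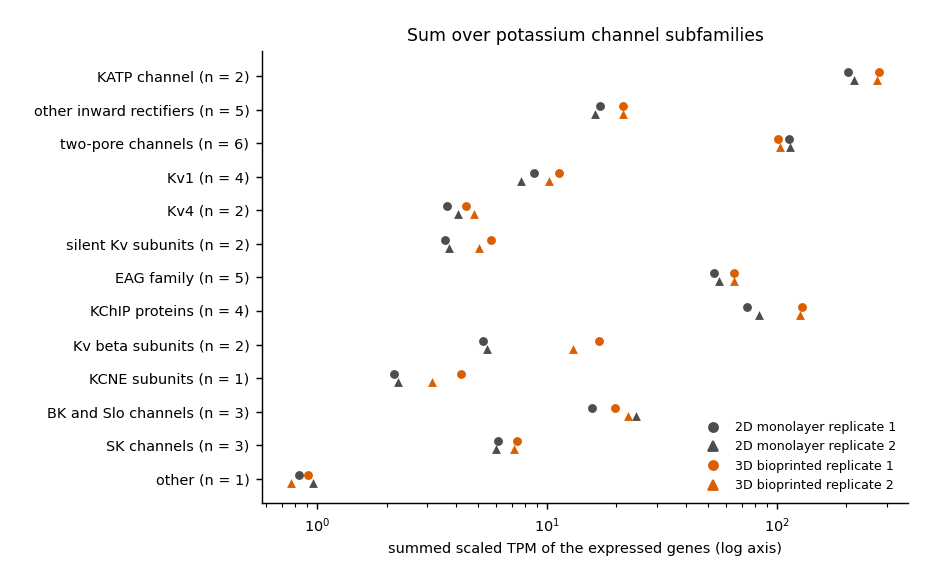
Summed level of the expressed genes of 13 subfamilies in scaled TPM (log axis), with 1 point for each culture and n the number of genes summed (two-pore channels are the K2P genes). Both 3D cultures lie above both 2D cultures in 10 of the 13 sums, below them for the K2P genes, and overlap for BK and Slo channels and for Kcnrg (other).

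At the transcript level, 24 of the 47 genes had 1 listed transcript and 23 had more, 60 in all, of which 13 were at 0 in some but not all cultures. Splits between transcripts of a gene are estimates of the quantification from single-end reads. The rise of Kcnip1 was seen in 3 of its 4 transcripts, the most abundant of which, ENSRNOT00000083090.1, was at 26.1 and 28.6 scaled TPM in 2D and at 58.5 and 57.5 in 3D. The fourth was at 0 in a culture of each group. Kcnd3, not called as a gene, had ENSRNOT00000019997.6 at 1.39 and 0.70 in 2D and at 0 in both 3D cultures, while ENSRNOT00000051835.4 was at 0 and 0.53 in 2D and at 1.74 and 1.59 in 3D. Of the Kcnip2 transcripts, ENSRNOT00000024750.4 was at 1.42 and 1.009 in 2D and at 0.627 and 0.898 in 3D, and ENSRNOT00000090765.1 was at 0.998 and 0.862 in 2D and listed at 0 in 3D. ENSRNOT00000068278.3 overlapped, at 0 and 0.195 in 2D and at 0.334 and 0.123 in 3D, and the remaining transcript was listed at 0 throughout.

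**Figure D5:**
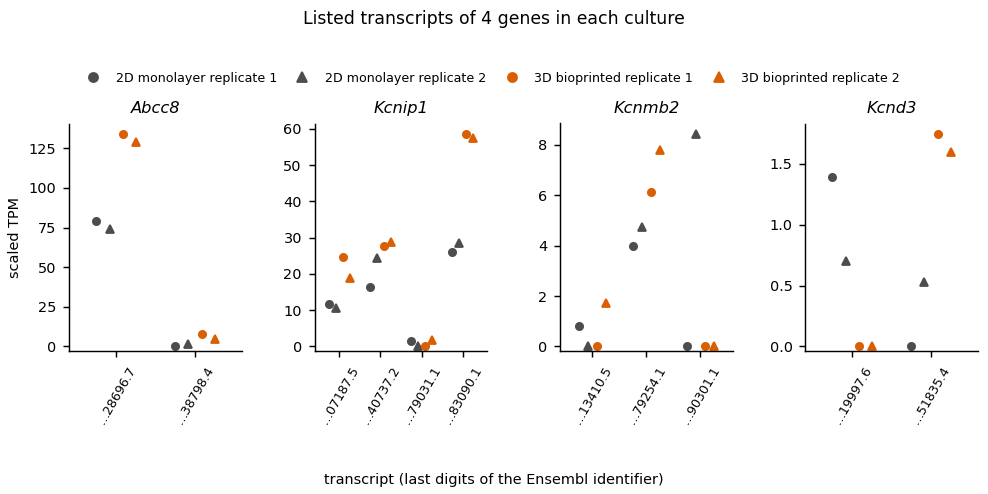
Level of each listed transcript above 0 of Abcc8, Kcnip1, Kcnmb2 and Kcnd3 in scaled TPM, with 1 point for each culture and transcripts named by the last digits of their identifier. A Kcnmb2 transcript is above 0 in 2D replicate 2 alone, and the Kcnd3 transcripts differ between the groups in opposite directions.

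Among the 47 genes that were not expressed, those nearest the level were Kcna6 with a mean of 0.487 TPM, Kcnj4 with 0.455 and Kcnk5 with 0.408. Kcna6 was at 0.277 and 0.371 in 2D and at 0.650 and 0.651 in 3D as deposited, so it was under 0.5 only in 2D. Together with Kcne1, Kcne3, Kcne4, Kcne5, Kcnj8 and Kcnn4, the genes listed at 0 throughout were Kcna1, Kcng1, Kcng3, Kcnj15, Kcnj16, Kcnk6, Kcnk9, Kcnk15, Kcnk18, Kcnmb1, Kcnmb3, Kcnu1, Kcnv1 and Kcnv2. The others, Kcna7, Kcna10, Kcnab1, Kcnc4, Kcng2, Kcnh5, Kcnh7, Kcnh8, Kcnj1, Kcnj5, Kcnj9, Kcnj10, Kcnj13, Kcnk4, Kcnk7, Kcnk13, Kcnq1, Kcnq3, Kcns1, Kcns2, Kcns3, Kcnt1, Kcnt2 and Abcc9, had means between 0.0058 and 0.328 TPM.

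Genes that work with these channels were read in the same fit. Of 24 partners of potassium channels 18 were tested, 6 higher and 3 lower, with a median log2 difference of 0.01. The smallest p-values were those of Stx1a, the syntaxin that binds KATP channels, which fell from 39.4 and 40.0 to 26.7 and 28.6 scaled TPM (log2 difference -0.51, adjusted p = 0.0068), of Dpp6, a transmembrane partner of Kv4, which rose from 39.7 and 38.8 to 60.1 and 53.9 (0.53, adjusted p = 0.0080), and of the SNARE gene Snap25, which rose from 94.95 and 103.9 to 140.6 and 133.8 (0.46, adjusted p = 0.0090). Of 26 sodium pump subunits and potassium transporters 12 were tested, 6 higher and 0 lower, with a median of 0.28. The exchanger gene Slc24a2 rose from 8.74 and 7.13 to 16.2 and 17.2 (0.99, adjusted p = 0.0058) and the potassium chloride cotransporter gene Slc12a4 from 1.25 and 1.09 to 4.26 and 3.26 (1.13, adjusted p = 0.0069).

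Of 26 depolarizing cation channel genes, which oppose the potassium channels, 19 were tested, 8 higher and 1 lower, with a median log2 difference of 0.22. Cacna1h, a T-type calcium channel pore, rose from 12.9 and 14.0 scaled TPM in 2D to 28.4 and 26.4 in 3D (0.98, adjusted p = 0.0047). Cacna1d, an L-type pore of beta cells, rose from 13.3 and 11.96 to 20.2 and 19.8 (0.62, adjusted p = 0.0067). The P/Q-type pore gene Cacna1a rose from 22.1 and 21.3 to 40.6 and 33.8 (0.75, adjusted p = 0.0074). The background shares of 17.2% higher and 18.7% lower apply to these lists as well.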

How the data were processed

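Messenger RNA was sequenced in 2 monolayer and 2 bioprinted cultures of INS-1 832/3 cells. Libraries were stranded and read from a single end. After quality control with FastQC 0.11.8, the authors quantified transcripts with Salmon 1.2 on rn4, to which the human insulin gene had been added, and deposited TPM. The TPM files use decimal commas, so they were entered as another unit in the check of units. The count-based DESeq2 test named in the methods needs counts and was not repeated.

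TPM were summed per gene symbol. The 12697 genes with a mean of at least 0.5 TPM were scaled with trimmed means of M values, unweighted (each end trimmed by 30% for M and 5% for A, factors 0.956 to 1.03), and log2(scaled TPM + 1) was fitted in limma 3.58.1 (R 4.3.3, trended empirical Bayes), with Benjamini-Hochberg adjustment over all genes tested. Differences on this scale understate the change of low genes. Sums and ratios were computed in Python 3.11.15 and exact tests with scipy 1.17.1. TPM hold no depth and the read count stated by the authors was not used, so precision is that of 2 cultures per group. No samples shared identical values above 0.

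Some genes that meet the rule below, and sums that hold them, are not reported here. Every other expressed member is named, with the value in each culture where the adjusted p was below 0.05 or the mean at least 10 TPM, and the 3 genes with the smallest p are named from each other list where reported. The members and lists were chosen with earlier results of these data known. The steps were tested on simulated data of 12693 genes for the 3D against 2D comparison. In these, 76, 59 and 62 genes were changed by 0.5, 1 and 2 on the log2 scale, and 53.9%, 91.5% and 98.4% of them were called. Of the calls 8.24% were of unchanged genes, above the threshold of 0.05. Far fewer genes were changed there than the 35.9% called in the data, so these rates do not carry over to the comparison. Alternatives were the scaling, filter, pseudocount, empirical Bayes options, threshold, replicate block and each culture left out. RefSeq promoters (GRCr8) were trimmed to the bases before the start. Protein sequences and genome coordinates of the files' build were not used here.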

Additional observations from a re-analysis of the deposited data

How the results depend on the processing

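Of the 18 called genes, 12 passed in all 9 other settings with all cultures and a threshold of 0.05, and all 18 kept their sign in every setting run. Without scaling 15 genes were higher and 2 lower, without a filter 11 and 2, and at an adjusted p below 0.01 7 and 0. Without scaling Kcnk2 and Kcna4 lost the call, and without a filter Kcne2, Kcnma1 and Kcnn1 were among others that lost it. Kcna3 and Kcng4 were called in some settings. The cause of these shifts was not tested. The labels do not say whether the replicate numbers pair the cultures. Deviations of same-numbered cultures were not correlated (-0.00098 over 12697 genes), which cannot decide how the cultures were handled. The fit with the replicate block called 14 higher and 4 lower and changed no call.

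With a culture left out in turn, 0 to 12 genes were higher and 0 to 3 lower, and these fits have fewer samples. Log2 differences that changed sign belonged to genes not called: Kcnj11 (-0.037 to 0.14), Kcnj6 (-0.077 to 0.25), Kcnj12 (-0.11 to 0.24), Kcnj3 (-0.025 to 0.080), Kcnk1 (-0.005 to 0.054), Kcnh2 (-0.042 to 0.080), Kcnip3 (-0.050 to 0.082), Kcnip4 (-0.17 to 0.41), Kcnmb2 (-0.71 to 0.58), Kcnmb4 (-0.30 to 0.11) and Kcnrg (-0.099 to 0.011). Without a filter Kcnk1 (-0.002), Kcnh2 (-0.008) and Kcnip3 (-0.010) also changed sign.

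The log2 ratios of subfamily sums moved by more than the spread between replicates without scaling for KATP (0.44), other inward rectifiers (0.42), K2P (-0.098), EAG (0.31) and SK (0.32), and for silent Kv (0.46) summed over all its genes. With a culture left out the ranges were 0.34 to 0.41 for other inward rectifiers, 0.22 to 0.29 for EAG, 0.61 to 0.78 for KChIP, 1.27 to 1.65 for Kv beta, 0.52 to 0.94 for KCNE and -0.21 to 0.43 for BK. TPM set no limit from depth, and the counting error of values near the floor of 0.5 TPM was not estimated.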
